A study of Homo sapiens with 6 samples.

Results

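The expression of 10 genes of transforming growth factor beta (TGF-β) supply and reception was described in HGC27 cells. They were the 3 ligands *TGFB1*, *TGFB2* and *TGFB3*, the 3 receptors *TGFBR1*, *TGFBR2* and *TGFBR3*, and the 4 latent TGF-β binding proteins *LTBP1*, *LTBP2*, *LTBP3* and *LTBP4*. The genes were chosen by name, and all 10 were found among the 39739 gene rows of the tables. HGC27 is an established gastric cancer cell line. In all 6 libraries were sequenced, 3 of HGC27-FN1 3′-UTR cells, in which the 3′ untranslated region (3′-UTR) of the fibronectin gene *FN1* was stably overexpressed from a lentivirus, and 3 of HGC27-control cells, whose labels say no more than that they were the control. Stable 3′-UTR cells were selected with puromycin, and the number of infections or selections behind each group was not stated. Each group may therefore stand for 1 selected population of 1 cell line, and the labels did not say that the libraries of a group came from separate cultures. The p-values therefore measure only the spread between these libraries, which may be technical.

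TGF-β ligands are secreted as latent complexes, in which the mature dimer stays bound to its own propeptide and, through it, to a latent TGF-β binding protein that anchors the complex in the extracellular matrix. Integrins, proteases and thrombospondin 1 release the ligand. It then binds the type II receptor TGFBR2, which phosphorylates the type I receptor TGFBR1, and TGFBR1 phosphorylates SMAD2 and SMAD3. The study followed thrombospondin 1 (*THBS1*), an activator of latent TGF-β, as a gene regulated through the microRNA let-7i-5p. It also reported higher TGF-β1 and TGF-β2 protein in cells overexpressing the *FN1* 3′-UTR. The values below are RNA levels of the ligands, receptors and latency proteins, and they do not measure protein.

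The libraries held 16357085 to 29202046 reads assigned to genes in HGC27-FN1 3′-UTR cells and 22332816 to 37037532 in HGC27-control cells. On this scale, 3 reads stood for 0.081 to 0.183 per 1000000 of these reads. This mark of 3 reads covers counting error only and was not used to filter genes. The intervals below come from the spread between libraries. Expression was given as RPKM, reads per kilobase of exons per 1000000 reads assigned to genes. The length is that of all exonic bases of a row, from 3238 in *TGFB1* to 10298 in *LTBP3*. It can exceed the length of the transcript that is expressed. Levels of different genes can therefore be set side by side only roughly. Markers of cell types are given next, and they cannot identify the labelled cell line. The level of vimentin, *VIM*, was 303 ± 19.6 RPKM (SD, n = 3) in HGC27-control cells and 304 ± 13.5 RPKM in HGC27-FN1 3′-UTR cells. Of the gastric mucosal markers, *TFF1*, *MUC5AC* and *PGC* had between 0 and 2 reads per group, and *TFF2* and *GKN1* had no row of these names. The summed level of 8 epithelial markers ranged from 19.8 to 28.8 RPKM in HGC27-FN1 3′-UTR cells and from 3.96 to 4.39 RPKM in HGC27-control cells, and 6 of the 8 were higher by the limma test. The summed level of the gastric mucosal markers, 5 of 10 tested and 4 higher, ranged from 11.5 to 14.0 RPKM and from 2.18 to 2.28 RPKM. The 4 were *CTSE*, *LYZ*, *PLA2G2A* and *MUC1*, at means of 2.46, 4.06, 3.08 and 2.70 RPKM in HGC27-FN1 3′-UTR cells. In HGC27-control cells these were at 0.0748, 0.185, 0.123 and 1.72 RPKM. The other tested marker, *MUC6*, was at 0.120 and 0.117 RPKM and was not called. The mesenchymal or fibroblast markers summed to 456 to 486 RPKM and 399 to 455 RPKM, with 4 of 7 tested genes higher. Immune markers summed to 2.03 to 2.27 RPKM and 2.30 to 2.66 RPKM with 0 of 2 tested genes called by limma, 0 at an unadjusted p under 0.05 and 0 by limma voom. Endothelial markers summed to at most 0.0222 RPKM, with *PECAM1* at 0 reads in all libraries. These marker levels stand beside every change below, and their part in the changes was not tested. In bulk RNA, fewer cells of a type and less RNA per cell cannot be told apart.

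Among the 10 genes, *TGFB2* and *TGFB3* rose, *TGFBR1* fell and 7 did not pass the test. *TGFB2* rose by 1.71 on the log2 scale, *TGFB3* rose by 0.20 and *TGFBR1* fell by 0.24. The test was limma on log2(RPKM + 0.1) with Benjamini-Hochberg adjustment over 23299 genes, and a gene was called at an adjusted p under 0.05. All 10 genes passed the filter on low values. Over all tested genes 5.62% were called higher and 7.36% lower. These 1310 higher and 1715 lower calls became 1696 higher and 1331 lower after median-ratio scaling, so higher calls were 43.3% of all calls in one and 56.0% in the other. With limma voom on the recovered reads, 3 of the 10 genes were called higher and 2 lower, and 8.76% and 13.2% of all tested genes were. The median log2 fold change of the 10 genes was -0.03, beside -0.04 over all tested genes. For 6 of the 10 genes the libraries of one group all lay beyond those of the other, 3 higher and 3 lower, against 14.3% higher and 21.7% lower among all tested genes. *TGFB2* was the only one of the 10 genes to also meet the criteria for differentially expressed genes of a log2 fold change past 1 in size with P under 0.05 before adjustment, which 1.65% of tested genes met as higher and 0.815% as lower.

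**Figure D1:**
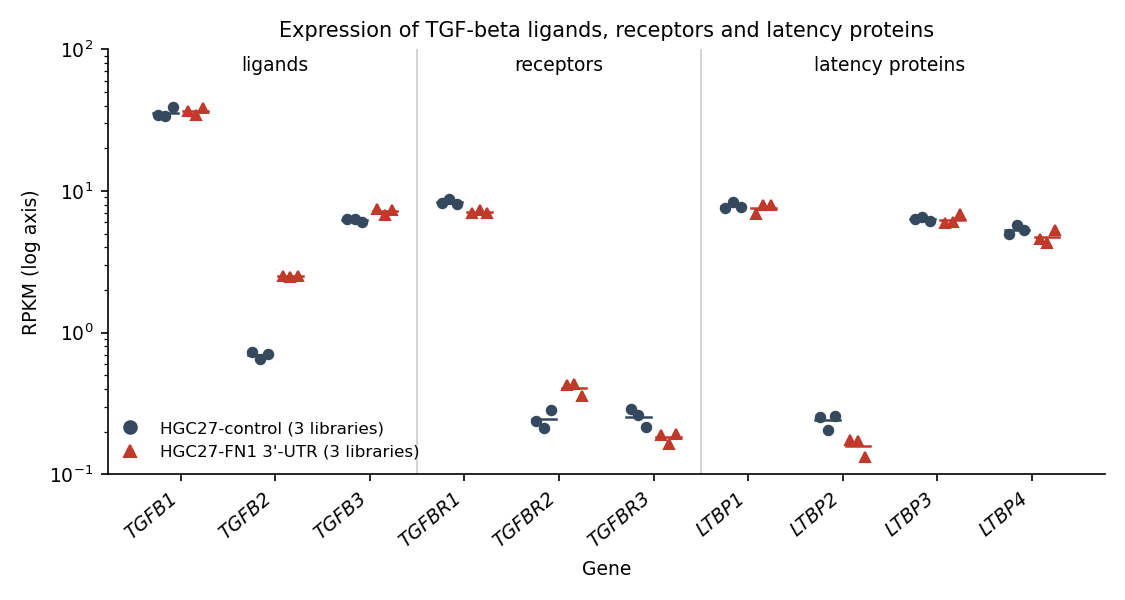
RPKM of each of the 10 genes on a log axis, with one point per library, circles for HGC27-control and triangles for HGC27-FN1 3′-UTR, and a short line at the mean of 3 libraries. *TGFB2* is the gene whose groups stand farthest apart, with 0.649 to 0.730 RPKM in control libraries and 2.48 to 2.51 RPKM in the others.

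*TGFB2* (chr1:218346235-218444619, plus strand, GRCh38) encodes TGF-β2, whose propeptide, unlike those of the other ligands, lacks the RGD motif that integrins bind. It was at 2.504, 2.480 and 2.506 RPKM in replicates 1 to 3 of HGC27-FN1 3′-UTR cells, from 211, 312 and 377 reads. In HGC27-control cells it was at 0.730, 0.649 and 0.708 RPKM, from 84, 103 and 135 reads. All 3 HGC27-FN1 3′-UTR libraries lay above all 3 control libraries, and they differed little from each other. Such closeness of 3 libraries, at these read counts, is not a measure of precision. The mean was 2.497 ± 0.0146 RPKM (SD, n = 3) against 0.696 ± 0.0420 RPKM, a ratio of 3.59. The log2 fold change was 1.71 (SE 0.075, 95% interval 1.53 to 1.89, adjusted p = 3.35e-04). With limma voom on the recovered reads it was 1.85, with a larger SE of 0.098. With a pseudocount of 1 RPKM in place of 0.1 the log2 fold change was 1.04 and was still called. The adjusted p was between 0.00218 and 0.00509 when each library was left out in turn.

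The row *TGFB2-OT1*, an RNA annotated within the last part of *TGFB2*, lies on the same strand with all of its 1371 bases inside *TGFB2* exons, which is 26.6% of the exonic length of *TGFB2*. It had 20, 26 and 38 reads in HGC27-FN1 3′-UTR libraries and 8, 8 and 15 reads in control libraries. Reads from these shared bases cannot be told apart by gene, and its log2 fold change of 1.49 (SE 0.16, adjusted p = 0.00459) is not independent of that of *TGFB2*. The tested genes whose log2(RPKM + 0.1) was most like that of *TGFB2* over the 6 libraries, among 14645 genes with a mean of at least 1 RPKM, were *COL12A1* with a Pearson r of 0.99918, *POP1* with 0.9989 and *MME* with 0.99884. The 6 libraries fall into 2 groups, so these values mostly describe the step between the groups.

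*TGFB3* (chr14:75958099-75982991, minus strand) encodes TGF-β3. It was at 7.44, 6.81 and 7.32 RPKM in HGC27-FN1 3′-UTR cells and at 6.31, 6.34 and 6.06 RPKM in HGC27-control cells. The groups did not overlap, and the lowest HGC27-FN1 3′-UTR library, at 6.81 RPKM, stood next to the highest control library, at 6.34 RPKM. The mean was 7.19 ± 0.335 RPKM (SD, n = 3) against 6.24 ± 0.152 RPKM, and the log2 fold change was 0.20 (SE 0.048, adjusted p = 0.0423). Without HGC27-FN1 3′-UTR replicate 2 the adjusted p was 0.0478. It was 0.121 without replicate 1 and 0.114 without replicate 3 of that group, and 0.0845, 0.108 and 0.108 without control replicates 1, 2 and 3, so the call was lost in 5 of 6 such fits. It was also lost with no filter on low RPKM, at an adjusted p of 0.0575. On the opposite strand, *RP11-270M14.5* shared 163 exonic bases with *TGFB3*, and whether reads were counted by strand is not given in the sources used here.

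*TGFB1* (chr19:41301587-41353911, minus strand) encodes TGF-β1, the best studied ligand, and had the highest level of the 10 genes. It was at 36.8, 34.3 and 38.3 RPKM in HGC27-FN1 3′-UTR cells and at 34.1, 33.9 and 39.3 RPKM in HGC27-control cells. The groups overlapped over nearly their whole range. The log2 fold change was 0.03, with a 95% interval from -0.14 to 0.20 (adjusted p = 0.829). *HNRNPUL1*, on the opposite strand, shared 215 of its exonic bases with *TGFB1*.

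Promoter sequence is shown for *TGFB2*, *TGFB3* and *LTBP1*. These are the members whose promoter windows hold the letters TGACGT, the first 6 letters of the cyclic AMP response element TGACGTCA. The windows are those of RefSeq on GRCh38.p14, from 250 bases before to 50 bases after each annotated start, 1 to 8 windows per gene, and all 10 genes matched by symbol. Both strands were searched. Capitals mark TGACGT or its reverse complement, the whole element in *LTBP1*, and the E-box letters CACGTG at the end of the *TGFB2* stretch. Each stretch is written on the strand of its gene.
*TGFB2*, chr1:218345263-218345292, plus strand: gcACGTCActttgttgaaggcagaCACGTG
*TGFB3*, chr14:75982025-75982054, minus strand: cccaggccagagACGTCAtgggagggaggt
*LTBP1*, chr2:32946847-32946876, plus strand: ggatctgccgccTGACGTCAcgtctgccgg

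The 6 letters began 71 bases before the RefSeq start in *TGFB2*, 47 bases before it in *TGFB3* and 94 bases before it in *LTBP1*. For *TGFB2* and *TGFB3* this start is not that of the gene row. The *TGFB2* stretch lies before the first base of its row, chr1:218346235. The *TGFB3* stretch lies inside its row, which ends at chr14:75982991. The 6 letters occurred in the 1 window of *TGFB2*, in 1 of the 2 windows of *TGFB3* and in 1 of the 3 windows of *LTBP1*. The shares that follow are of windows and not of genes. Of all 35116 RefSeq promoter windows, 7.98% held TGACGT, a count that includes the 1.85% with the whole element TGACGTCA, and 7.26% held CACGTG. Among the 10 genes, the E-box letters occurred in the window of *TGFB2* and in 1 of the 2 windows of *TGFB3*. The AP-1 letters TGANTCA, found in 7.71% of all windows, occurred among the 10 genes in 1 of the 2 windows of *TGFBR2*. Of the genes with TGACGT, *TGFB2* and *TGFB3* were called higher and *LTBP1*, with the whole element, was not. Any part of these letters in the changes was not tested. A match is a description of the letters and not evidence of a bound site.

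*TGFBR1* (chr9:99104038-99154192, plus strand) encodes the type I receptor, the kinase that passes the signal to SMAD2 and SMAD3. It was at 7.02, 7.39 and 6.95 RPKM in HGC27-FN1 3′-UTR cells and at 8.27, 8.82 and 8.13 RPKM in HGC27-control cells. All 3 HGC27-FN1 3′-UTR libraries lay below all 3 control libraries. The mean was 7.12 ± 0.235 RPKM (SD, n = 3) against 8.41 ± 0.362 RPKM, which is 84.7% of the control level, and *TGFBR1* fell by 0.24 on the log2 scale (SE 0.047, adjusted p = 0.0255). The adjusted p was 0.0477 without control replicate 3, 0.0569 without control replicate 1 and 0.0853 without control replicate 2. It was 0.0827, 0.05003 and 0.0769 without HGC27-FN1 3′-UTR replicates 1, 2 and 3, so the call was lost in 5 of 6 such fits.

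*TGFBR2* (chr3:30606502-30694142, plus strand) encodes the type II receptor, which binds the ligand first. It was at 0.429, 0.435 and 0.357 RPKM in HGC27-FN1 3′-UTR cells, from 33, 50 and 49 reads, and at 0.238, 0.214 and 0.287 RPKM in HGC27-control cells, from 25, 31 and 50 reads. The groups did not overlap, with a ratio of means of 1.65. The log2 fold change of 0.55 (SE 0.16, 95% interval 0.16 to 0.94) did not pass the adjusted threshold (adjusted p = 0.0742). With limma voom on the recovered reads it was 0.69 and passed (adjusted p = 0.0155), and with a pseudocount of 1 RPKM it was 0.17.

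*TGFBR3* (chr1:91680343-91906335, minus strand) encodes betaglycan, a coreceptor that presents ligand, TGF-β2 above all, to the type II receptor. It was at 0.190, 0.165 and 0.193 RPKM in HGC27-FN1 3′-UTR cells, from 27, 35 and 49 reads, and at 0.288, 0.261 and 0.217 RPKM in HGC27-control cells, from 56, 70 and 70 reads. The control libraries were all higher, and the log2 fold change of -0.33 did not pass the test (95% interval -0.75 to 0.09, adjusted p = 0.267). It was -0.09 with a pseudocount of 1 RPKM.

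The 3′-UTRs of the 10 genes were searched for the seed match of let-7i-5p because the study centred on this microRNA, which represses messenger RNAs that pair with its seed. Its mature sequence from RefSeq (chr12:62603691-62603712, GRCh38.p14) is shown with its seed, bases 2 to 8, in capitals, followed by the stretches of the 3′-UTRs with the seed match CTACCTC in capitals (GRCh38, GENCODE release 29, 1 transcript per gene).
let-7i-5p: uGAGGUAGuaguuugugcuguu
*TGFBR1*, chr9:99149365-99149394, plus strand: gggaggtcaattgttCTACCTCactgagag
*TGFBR3*, chr1:91680731-91680760, minus strand: ctttttgtactgtaaCTACCTCatggtttg

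The seed match began 75 bases after the stop codon in *TGFBR1* and 2994 bases after it in *TGFBR3*, and both were followed by an A. The 3′-UTRs of the other 8 genes, *TGFB2* and *TGFB3* among them, held no such 7 letters, and 8.61% of 18918 genes with a 3′-UTR did. *TGFBR1* and *TGFBR3* had log2 fold changes of -0.24 and -0.33, of which the first passed the test. The microRNA itself was not measured in these libraries.

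Of the 4 latency proteins, 0 passed the limma test, 0 had an unadjusted p under 0.05, which 29.6% of all tested genes had, and 1, *LTBP2*, passed with limma voom on the recovered reads. *LTBP1* (chr2:32946972-33399509, plus strand) encodes a matrix protein that binds the propeptides of the ligands covalently. It was at 6.91, 8.0002 and 8.03 RPKM in HGC27-FN1 3′-UTR cells and at 7.62, 8.41 and 7.66 RPKM in HGC27-control cells, and the groups overlapped. Its log2 fold change was -0.05 (95% interval -0.23 to 0.13, adjusted p = 0.723). *LTBP3* (chr11:65538805-65558930, minus strand), which also binds latent ligand, was at 5.91, 6.08 and 6.85 RPKM and at 6.39, 6.55 and 6.10 RPKM. Its log2 fold change was -0.02 (95% interval -0.18 to 0.14, adjusted p = 0.893), and turned to 0.02 after median-ratio scaling.

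*LTBP4* (chr19:40592883-40629818, plus strand), which also takes part in elastic fibre assembly, was at 4.55, 4.29 and 5.27 RPKM in HGC27-FN1 3′-UTR cells and at 5.01, 5.72 and 5.29 RPKM in HGC27-control cells. The groups overlapped, with a log2 fold change of -0.18 (95% interval -0.40 to 0.03, adjusted p = 0.232). Without HGC27-FN1 3′-UTR replicate 2 it was -0.12. *LTBP2* (chr14:74498170-74612378, minus strand) is the family member that does not bind latent TGF-β. It was at 0.175, 0.171 and 0.132 RPKM, from 26, 38 and 35 reads, and at 0.256, 0.207 and 0.258 RPKM, from 52, 58 and 87 reads. The groups did not overlap, and the log2 fold change was -0.39 (SE 0.18, adjusted p = 0.212). With limma voom on the recovered reads it was -0.62 and passed (adjusted p = 0.0222), and with a pseudocount of 1 RPKM it was -0.10. *CTD-2207P18.1*, on the opposite strand, shared 207 exonic bases with *LTBP2* and had 2 and 1 reads in the groups.

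**Figure D2:**
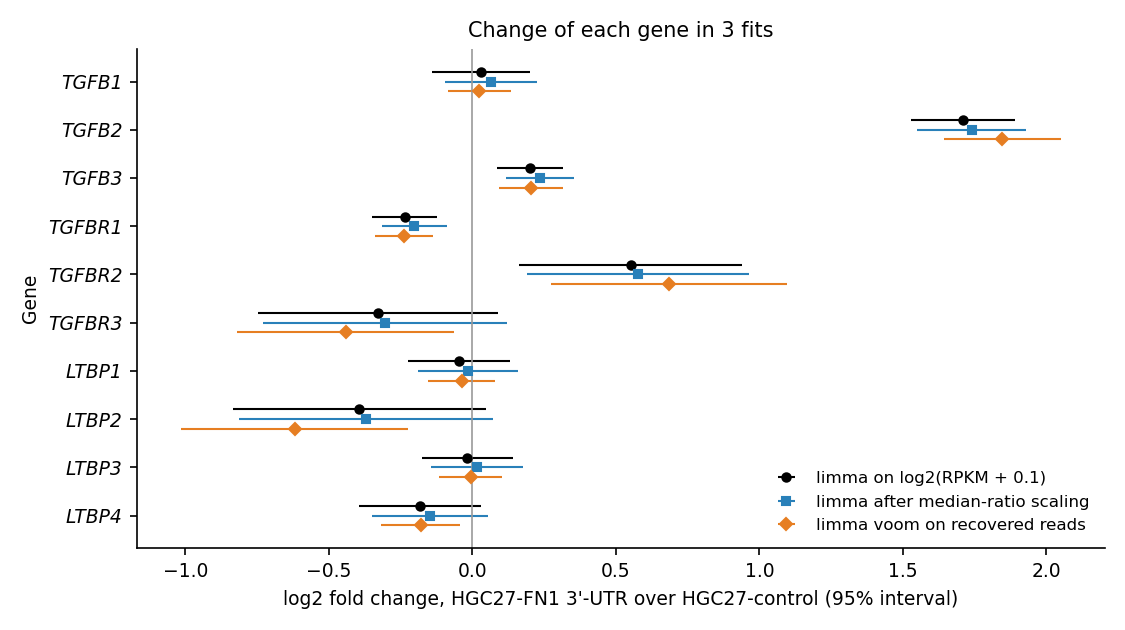
Log2 fold change of each gene, HGC27-FN1 3′-UTR over HGC27-control, with 95% intervals from limma on log2(RPKM + 0.1), the same after median-ratio scaling, and limma voom on recovered reads. *TGFB2* stands apart at 1.71, 1.74 and 1.85 in these 3 fits, and the widest intervals belong to *TGFBR2*, *TGFBR3* and *LTBP2*, the genes with the fewest reads.

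By RPKM, the levels fell into the same 4 ranks in both groups, and the limit on comparing genes given above applies to this order. *TGFB1* was highest, and *TGFBR1*, *LTBP1*, *LTBP3*, *TGFB3* and *LTBP4* followed between 4.70 and 8.41 RPKM as group means. *TGFBR2*, *TGFBR3* and *LTBP2* were the lowest, between 0.159 and 0.407 RPKM, and *TGFB2* lay between these sets at 0.696 and 2.497 RPKM. In HGC27-control cells the ranges of *TGFBR1* and *LTBP1*, of *LTBP3* and *TGFB3*, of *TGFBR3* and *TGFBR2* and of *TGFBR2* and *LTBP2* overlapped, so these neighbours did not differ beyond their spread. In HGC27-FN1 3′-UTR cells *TGFBR2* stood above *TGFBR3* with no overlap, whereas *LTBP1*, *TGFB3* and *TGFBR1* overlapped in turn, as did *TGFBR3* and *LTBP2*.

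The composition of each set was compared within libraries, as shares of summed RPKM. The size of a share depends on the row lengths, which are the same in both groups. *TGFB2* made up 5.35%, 5.69% and 5.21% of ligand RPKM in HGC27-FN1 3′-UTR cells and 1.78%, 1.59% and 1.54% in HGC27-control cells. The means were 5.42% ± 0.25 (SD, n = 3) and 1.63% ± 0.127, with no overlap. The share of *TGFB1* was 79.0% ± 0.509 against 83.7% ± 1.39, so TGF-β1 transcripts remained the bulk of ligand RPKM in both. *TGFBR2* made up 5.40% ± 0.459 of the RPKM of *TGFBR1* and *TGFBR2* against 2.86% ± 0.523 in control cells, again without overlap. The exact permutation test over libraries, two-sided, gave p = 0.1 for both shares, the smallest that 3 against 3 allows, and 0.2 after adjustment over the 4 shares tested. *TGFBR3* made up 2.37% ± 0.272 of receptor RPKM against 2.87% ± 0.384 (exact permutation p = 0.2, adjusted p = 0.267), and this difference of -0.494 percentage points was -0.289 without control replicate 1. *LTBP1* made up 40.7% ± 2.11 of LTBP RPKM against 39.8% ± 0.389 (exact permutation p = 0.9, adjusted p = 0.9), and the sign of this difference turned without HGC27-FN1 3′-UTR replicate 2, from 0.878 to -0.339 percentage points.

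**Figure D3:**
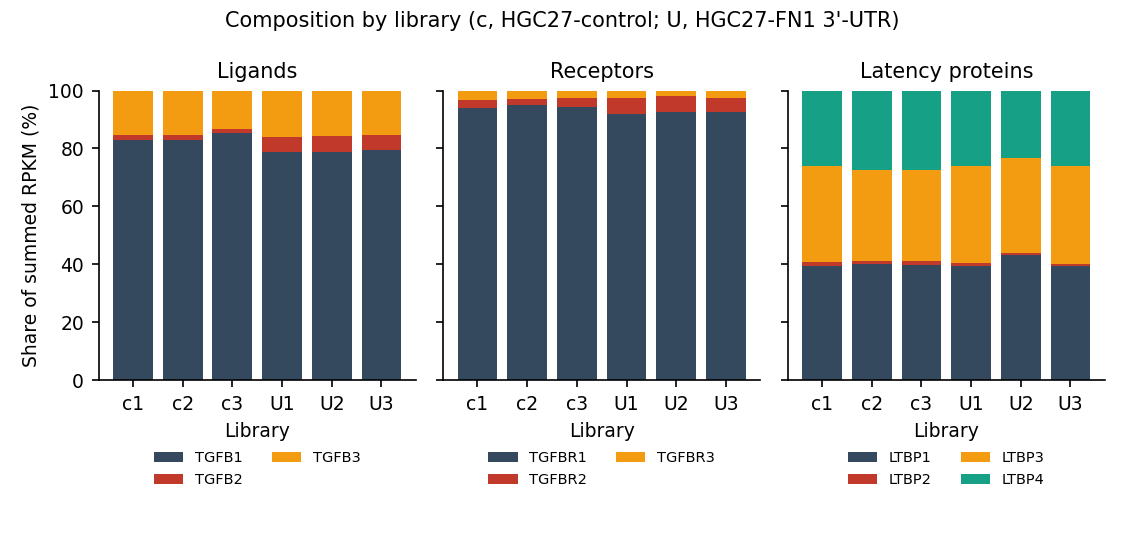
Share of summed RPKM, in percent, of each ligand, receptor and latency protein in each library, as stacked bars from 0 to 100. c1 to c3 are the HGC27-control replicates and U1 to U3 the HGC27-FN1 3′-UTR replicates, and the *TGFB2* segment covers 1.54% to 1.78% in the first and 5.21% to 5.69% in the second.

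A further 74 genes of the pathway, in 5 lists by role, were described beside these, and 62 of them passed the filter. Of the 62, 23 were called higher and 2 lower, with a median log2 fold change of 0.19 beside -0.04 over all tested genes. Over all tested genes 5.62% were called higher and 7.36% lower, the shares to set beside the counts of each list below. The lists were made with earlier results of these data known, and the counts are descriptions. Of 9 tested activators of latent TGF-β, 3 rose and 6 did not pass. *THBS1* rose from 0.415 ± 0.0277 RPKM to 2.79 ± 0.119 RPKM (SD, n = 3), a log2 fold change of 2.49 (SE 0.085, adjusted p = 1.27e-04). *ITGAV*, the integrin subunit αV of the integrins that release TGF-β, rose by 0.39 (adjusted p = 0.0108), and *ITGB1*, the β1 subunit, rose by 0.25 on the log2 scale (adjusted p = 0.00308).

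Of 7 tested partners and matrix anchors of the latent complex, 3 rose and 4 did not pass, with a median log2 fold change of 0.29. *FN1*, whose protein helps to anchor the latent complex in the matrix, rose by 0.515 (adjusted p = 0.0292). The mean was 0.516 RPKM in HGC27-control cells and 0.780 RPKM in HGC27-FN1 3′-UTR cells, from 804 and 949 reads at unequal depth. *FN1* is the gene whose 3′-UTR was overexpressed, so reads of the construct and of the cells' own *FN1* cannot be told apart in this row. *FBN2*, a microfibril protein, rose by 0.40 and *EMILIN1*, an elastic fibre protein that restrains processing of the TGF-β precursor, by 0.20 (adjusted p = 0.0107 and 0.00597). Of 5 tested accessory receptors, *BAMBI*, a decoy receptor, rose by 0.53 (adjusted p = 0.0017), *NRP1*, a coreceptor, rose by 0.52 (adjusted p = 0.016), and 3 did not pass.

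Of 18 SMADs and their regulators, all tested, 3 rose, 1 fell and 14 did not pass, with a median log2 fold change of -0.03. The inhibitory SMADs *SMAD7* and *SMAD6* rose by 0.39 and 0.31 (adjusted p = 0.00947 and 0.0178), and *TGIF1*, a transcriptional corepressor of SMADs, rose by 0.32 (adjusted p = 0.022). *SMURF2*, a ubiquitin ligase that SMAD7 brings to the type I receptor, fell by 0.42 (adjusted p = 0.00422). The signal carriers *SMAD2*, *SMAD3* and *SMAD4* had log2 fold changes of -0.01, 0.19 and -0.07, and did not pass the test. These 3 were chosen after their values were seen.

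Of 23 tested genes known to be induced or repressed by TGF-β, 12 rose, 1 fell and 10 did not pass, with a median log2 fold change of 0.51. The list holds induced and repressed genes together, so neither the counts nor the median give a direction of response. Among the genes that rose were *ID1* at 0.51 and *ID2* at 0.38 (adjusted p = 0.0239 and 0.0366), inhibitors of differentiation that TGF-β is known to repress in epithelial cells, named after their values were seen. The largest changes were those of *NEDD9*, a scaffold protein of focal adhesions, at 2.23, *TNC*, the matrix protein tenascin C, at 2.12, *TAGLN*, an actin-binding protein, at 1.48, and *CTGF*, a matricellular growth factor, at 1.34 (adjusted p = 9.1e-04, 0.00126, 0.0013 and 0.00188). *VEGFA*, an angiogenic factor that TGF-β is known to induce, was the gene that fell, by 0.60 (adjusted p = 7.39e-04), and is named after its values were seen. *JUNB* and *BHLHE40*, also known to be induced, had log2 fold changes of -0.02 and 0.02, and *PMEPA1*, a feedback inhibitor, one of -0.22, with no call for any of them, and were also chosen after their values were seen.

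**Figure D4:**
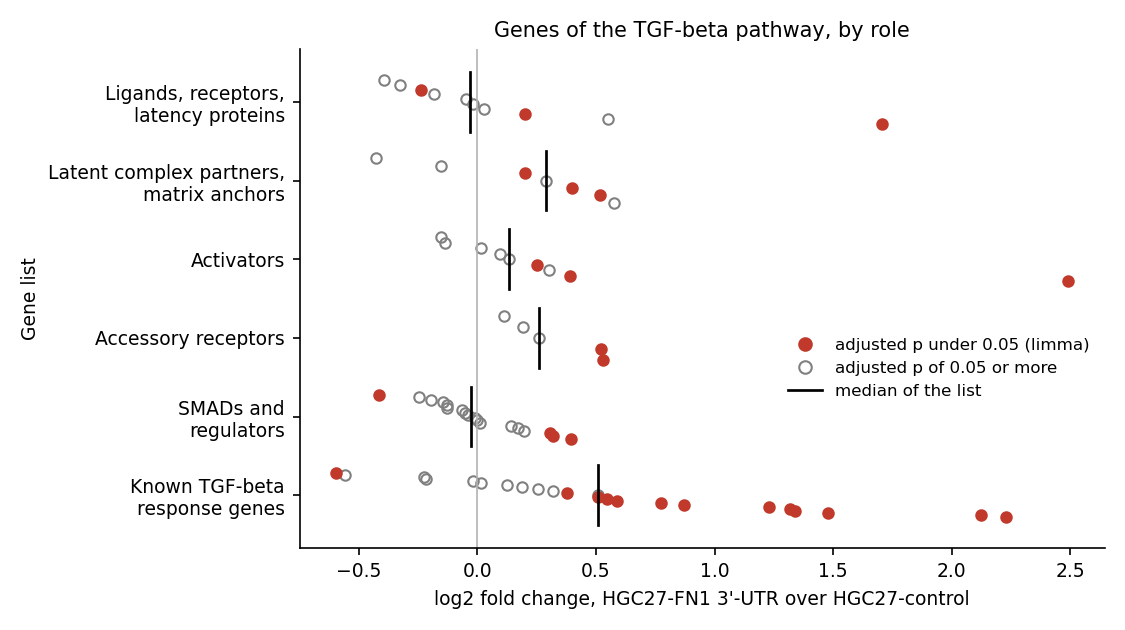
Log2 fold change of each tested gene, HGC27-FN1 3′-UTR over HGC27-control, in rows by role, with filled points at an adjusted p under 0.05 by limma, open points above it and a vertical line at the median of each row. The median lies at -0.03 for the ligands, receptors and latency proteins and at 0.51 for the known TGF-β response genes.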

How the data were processed

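RNA of 6 HGC27 libraries was sequenced. The authors deposited 1 table of RPKM per library, made from stranded mRNA libraries. The submitters' processing notes name Trimmomatic 0.36, STAR 2.5.3a, featureCounts of Subread 1.5.1 and GRCh38. RPKM times exon length in kilobases was a whole multiple of 1 read, within 0.02 of a read, for 100% of values above 0, and these multiples are the recovered reads. Reads of libraries of 1 group gave a chi-square per gene of 2.67 to 6.19, beyond sampling noise. Genes that reached 0.1 RPKM in at least 3 libraries were fitted with limma 3.58.1 in R 4.3.3 on log2(RPKM + 0.1), with group as the only term and a trend in the prior variance. The pseudocount understates changes of low genes. Shares were tested by exact permutation with scipy 1.17.1. The fit was tested on simulated reads.

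The members, lists and rules were chosen with earlier results of these data known. Named beside the 10 members were up to 4 genes per list with the largest absolute log2 fold change among those called and without overlap between groups, *THBS1*, *FN1*, the 3 genes most like *TGFB2*, and rows sharing exonic bases with a member. Alternatives were pseudocounts of 1 and 0.01, no filter, a mean RPKM of at least 1, the replicate number as a block, median-ratio scaling, limma voom on recovered reads, shares of reads, and each library left out. Protein sequences were not used here.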

Additional observations from a re-analysis of the deposited data

How the results depend on the processing

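The call of *TGFB2* held under all 13 alternatives. The number of genes called higher was 2, and 1 with no filter on low RPKM, at 36521 genes tested. Leaving out each library gave 1 to 2 genes higher and 0 to 1 lower, where the main count was 1, with fewer libraries in each fit. In these fits 2.21% to 4.08% of all tested genes were higher and 2.07% to 4.46% lower, in place of 5.62% and 7.36%. With limma voom on recovered reads 2 genes were lower, *TGFBR1* and *LTBP2*, and 3 were higher, *TGFB2*, *TGFB3* and *TGFBR2*, and the cause was not tested.

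With the replicate number as a block 1 gene was higher and 1 lower, since *TGFB3* was lost at an adjusted p of 0.102. Libraries of the same number did not deviate together, with correlations of 0.00244, 0.0211 and 0.0103 between the groups, so the numbers were not taken to pair them. The block left 564 higher and 598 lower calls among all genes, in place of 1310 and 1715. Of the 62 tested pathway genes it left 14 higher and 2 lower, in place of 23 and 2. Among the SMADs and their regulators 0 were then higher and 1 lower. Named genes whose calls were lost were *SMAD6*, *SMAD7*, *TGIF1*, *FN1*, *ITGAV*, *NRP1*, *ID1* and *ID2*, and *MUC1* among the markers. With the block, 5 of the 8 epithelial markers and 3 of the 5 tested gastric mucosal markers were higher. The difference in the *TGFB2* share was 3.79 percentage points in the paired form too, with an exact sign-flip p of 0.25, the smallest that 3 pairs allow.

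Signs that turned belonged to values near 0 that passed no test. Left out in turn, the libraries gave log2 fold changes of -0.0071 to 0.0987 for *TGFB1*, -0.0846 to 0.0224 for *LTBP1* and -0.0806 to 0.0242 for *LTBP3*, and a difference in the *LTBP1* share of -0.339 to 1.54 percentage points. *LTBP3* also turned after median-ratio scaling, to 0.0165. *TGFBR2*, *TGFBR3* and *LTBP2* rest on 99 to 197 reads per group, the fewest of the 10 genes. The difference in the *TGFBR3* share was -0.670 to -0.289 percentage points when each library was left out.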
